A study of Mus musculus with 12 samples.

Results

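Sox1, Pax6, Gbx2, Neurog3, Nkx6-3, Nefm, Sox11 and Nes, 8 genes commonly read as signs of neuroectoderm or of neural fate, were measured by poly(A) RNA-Seq in mouse ESCs and in day 3 cells sorted for the activity of Eomes. Each gene is represented by the assembled locus whose transcripts matched the Ensembl gene in full or shared a splice junction with it, and where a name had several loci the one with the most counts was taken. All 8 had a locus among the 80012 counted, and all 8 were among the 20212 loci tested. The question asked of them was which were transcripts of the ESCs and which were higher after differentiation.

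The cells were 1 mouse ESC line of C57BL/6 background, in which EGFP had been placed at the start of the endogenous Eomes gene (EomesEGFP), so every group carried the reporter allele. Whether 1 or both copies of Eomes carried it is not given in the sources used here. The ESC group was grown undifferentiated at day 0 on mouse embryonic fibroblast feeders in serum medium with leukemia inhibitory factor (LIF). The other groups were day 3 embryoid bodies, grown as hanging drops without LIF, dissociated and sorted by EGFP into an Eomes-negative (Eo−) and an Eomes-positive (Eo+) fraction. Each group had 4 libraries, numbered 1, 2, 5 and 6, and the methods name 4 differentiation sets, so p-values measure the spread between cultures of a single line. The Eo− fraction is defined by the absence of fluorescence and not by any marker of its own.

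Neuroectoderm forms from epiblast cells that do not enter the primitive streak, and it is usually recognised by transcription factors of the neural plate and, later, by proneural factors and by intermediate filament proteins of progenitors and neurons. Several of these genes are not restricted to neural tissue. Gbx2 is a known target of LIF signalling in ESCs, Neurog3 directs endocrine cells of the pancreas, Nkx6-3 acts in the stomach, and Sox11 and Nes are made by many embryonic progenitors.

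The loci lie as follows in mm10. Sox1 (XLOC_066583) is at chr8:12282211-12400126 on the plus strand, where assembly joined it with the noncoding genes RP24-133K20.2 and Gm5607, but 4832 of its 5234 exonic bases are those of the single-exon Sox1 transcript. Pax6 (XLOC_038688) is at chr2:105668900-105698022 on the plus strand, with 45 assembled transcripts. Gbx2 (XLOC_003794) is at chr1:89927956-89931179 on the minus strand, and Neurog3 (XLOC_005896) at chr10:62133032-62134991 on the plus strand. Nkx6-3 (XLOC_066811) is at chr8:23152865-23158948 on the plus strand. Nefm (XLOC_023683) is at chr14:68082590-68124934 on the minus strand, and Nes (XLOC_044107) at chr3:87971078-87980460 on the plus strand. Sox11 (XLOC_015794) is at chr12:27150695-27501387 on the minus strand, where it was joined with Gm9866, and 8311 of its 8772 exonic bases are those of Sox11.

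The stretches of 250 bases before the RefSeq start (GRCm38.p6) were read for the 6 members that matched the RefSeq table (Sox1, Pax6, Gbx2, Neurog3, Sox11 and Nes). Shown here are those of Gbx2, which had the highest ESC level, of Neurog3, which fell furthest in Eo+ cells, of Sox1, which held the most CG, and of Sox11, the only member called higher at day 3. Every CG dinucleotide is in capitals, and the sequences read 5′ to 3′ along the strand of the gene.
Gbx2 (chr1:89931177-89931426, minus strand): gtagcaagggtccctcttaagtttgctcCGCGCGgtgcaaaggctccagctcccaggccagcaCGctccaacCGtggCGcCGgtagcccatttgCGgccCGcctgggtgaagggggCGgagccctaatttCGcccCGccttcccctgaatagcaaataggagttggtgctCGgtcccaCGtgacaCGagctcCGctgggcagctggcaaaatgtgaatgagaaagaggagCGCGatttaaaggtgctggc
Neurog3 (chr10:62132840-62133089, plus strand): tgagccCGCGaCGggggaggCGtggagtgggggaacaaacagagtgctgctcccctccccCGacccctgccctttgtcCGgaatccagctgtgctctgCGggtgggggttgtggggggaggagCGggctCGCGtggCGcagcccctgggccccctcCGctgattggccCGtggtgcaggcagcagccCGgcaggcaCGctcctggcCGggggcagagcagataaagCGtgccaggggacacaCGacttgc
Sox1 (chr8:12395269-12395518, plus strand): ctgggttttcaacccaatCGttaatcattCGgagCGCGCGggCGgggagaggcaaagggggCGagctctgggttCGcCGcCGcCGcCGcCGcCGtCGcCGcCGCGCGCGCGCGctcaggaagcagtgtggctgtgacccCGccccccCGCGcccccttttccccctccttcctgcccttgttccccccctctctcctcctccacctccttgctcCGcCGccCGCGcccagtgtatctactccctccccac
Sox11 (chr12:27342719-27342968, minus strand): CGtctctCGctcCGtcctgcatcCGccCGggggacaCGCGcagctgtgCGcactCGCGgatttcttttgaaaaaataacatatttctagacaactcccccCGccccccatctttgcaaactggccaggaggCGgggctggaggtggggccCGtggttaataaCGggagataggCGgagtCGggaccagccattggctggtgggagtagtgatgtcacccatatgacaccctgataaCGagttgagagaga
Gbx2 held 18 CG, Neurog3 18, Sox1 29 and Sox11 17. Over the 7 starts of the 6 members (Pax6 had 2) the number was 15 to 29, against a median of 6 and quartiles of 2 and 16 over 32851 RefSeq starts. CG counts above that median were shared by the members that fell and the member that rose. On either strand, none of the 7 stretches held the octamer ATGCAAAT, which 1.60% of the 32851 starts held, the SOX motif CATTGT, which 10.7% held, or the STAT motif TTCNNNGAA, which 7.02% held, and this says only that these letters are not in these windows.

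Total locus counts were 648413022 to 837308168 per library, at which 3 counts equal 0.00353 to 0.00470 CPM (the unit of counts scaled to a common library size, with TMM scaling). This floor allows for counting error alone, since reads without molecular identifiers are not independent molecules. The markers of each label moved with it. The summed level of 12 naive pluripotency genes was 2283 to 3024 CPM in ESC, 335.1 to 468.9 CPM in Eo− and 215.8 to 251.0 CPM in Eo+ libraries, and that of 8 mesendoderm genes was 93.8 to 289.9, 263.6 to 533.1 and 1854 to 3134 CPM. The Eo− fraction was not free of Eomes, at 19.8 FPKM against 77.2 in Eo+ and 6.77 in ESC. Markers of feeder fibroblasts, some of which day 3 cells also make (Tagln was at 18.9 FPKM in Eo− and 21.1 in Eo+), had a higher summed level in the ESC libraries. The 16 markers summed to 559.8, 395.3, 781.2 and 232.4 CPM in ESC replicates 1, 2, 5 and 6, and to 64.3 to 87.4 CPM in the day 3 libraries, where no marker of the 16 was at 3 counts or fewer in all 4 libraries of a group. The part of feeder RNA in the ESC levels given below was not tested. In bulk libraries, fewer cells of a type and less RNA per cell cannot be told apart.

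In ESCs, the 8 genes spanned a wide range. On the per-length scale (FPKM, CPM divided by the exon length of the locus in kilobases), Gbx2 stood highest at 18.98 ± 1.96 (SD, n = 4), above 86.7% of the tested loci. Nes followed at 9.62 FPKM, Sox11 at 4.97, Nefm at 1.22, Neurog3 at 0.694, Pax6 at 0.585, Nkx6-3 at 0.271 and Sox1 at 0.232. Nkx6-3 stood above 25.9% of the tested loci and Sox1 above 23.5%. Sox1, Pax6 and Nkx6-3 were tested through their ESC level alone, so they could not be among the lowest there. The ESC library ranges of Gbx2 and Nes did not overlap, nor did those of Sox11 and Nefm, while every other neighbouring pair in this order overlapped. In Eo− cells the order became Nes and Sox11, at 14.5 and 14.4 FPKM with overlapping ranges, then Nefm, Gbx2, Neurog3, Sox1, Pax6 and Nkx6-3, each apart from the next. In Eo+ cells Sox11 led at 17.7 FPKM, followed by Nes at 10.9, Nefm and Gbx2 with overlapping ranges, and the other 4 genes at 0.0105 FPKM or less, whose neighbouring ranges overlapped. These orders rest on the summed exon length of each locus. For Pax6 that was 12357 bp, against 4427 bp for its longest reference transcript. By the lengths of the longest reference transcripts, mean Pax6 would stand above Neurog3 in ESC and above Sox1 in either day 3 fraction.

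Gbx2, a homeobox factor that sets the boundary between midbrain and hindbrain, was an abundant ESC transcript and fell in day 3 cells of either kind. It stood at 42.1, 43.5, 44.5 and 35.1 CPM in ESC replicates 1, 2, 5 and 6, at 1.52, 2.06, 1.26 and 1.77 CPM in Eo− and at 1.17, 1.96, 0.812 and 2.05 CPM in Eo+. Every ESC library lay above every day 3 library, while the ranges of the day 3 fractions overlapped. Against ESC, Gbx2 had a log2 fold change of -4.66 ± 0.22 (SE) in Eo− cells (adjusted p = 3.98e-09) and of -4.89 ± 0.22 in Eo+ cells (adjusted p = 8.44e-10), where 3.63% of the ESC mean was left. Gbx2 was not called between the fractions, with a log2 fold change of -0.22 in Eo+ against Eo− (adjusted p = 0.561, 95% interval -0.83 to 0.39).

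Pax6, the paired-box factor of neural progenitors and the eye, fell in steps from ESC to Eo− to Eo+. It stood at 9.07, 6.38, 7.41 and 6.04 CPM in ESC, at 0.450, 0.469, 0.695 and 0.669 CPM in Eo− and at 0.0711, 0.0796, 0.0907 and 0.0659 CPM in Eo+ libraries. No library of a group overlapped with any of another. The log2 fold change was -3.68 ± 0.19 in Eo− (adjusted p = 8.64e-09) and -6.54 ± 0.29 in Eo+ (adjusted p = 6.64e-10) against ESC, and -2.86 ± 0.32 in Eo+ against Eo− (adjusted p = 1.18e-05). Eo− cells held 7.90% of the ESC mean and Eo+ cells 1.06%.

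Sox1, among the earliest factors restricted to the neural plate, was a low transcript throughout and was highest in ESCs. It stood at 1.75, 1.03, 1.04 and 1.05 CPM in ESC, at 0.296, 0.688, 0.514 and 0.530 CPM in Eo− and at 0.0457, 0.0731, 0.0312 and 0.0706 CPM in Eo+. The 3 groups did not overlap, and ESC replicate 1 stood apart from the other ESC libraries. The log2 fold change was -1.30 ± 0.27 in Eo− (adjusted p = 0.000917) and -4.49 ± 0.40 in Eo+ (adjusted p = 3.06e-07) against ESC, and without ESC replicate 1 these were -1.10 and -4.30. Eo+ cells were below Eo− cells by a log2 fold change of -3.20 ± 0.42 (adjusted p = 4.31e-05).

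Neurog3, a basic helix-loop-helix factor of endocrine and some neural progenitors, kept 46.4% of its ESC mean in Eo− cells and 0.727% in Eo+ cells. It stood at 0.944, 1.16, 1.69 and 1.27 CPM in ESC and at 0.491, 0.477, 0.703 and 0.679 CPM in Eo− libraries. In Eo+ libraries it had 8, 15, 5 and 0 counts, or at most 0.0196 CPM. The 3 groups did not overlap. The log2 fold change was -1.10 ± 0.29 in Eo− against ESC (adjusted p = 0.00518), -7.62 ± 0.69 in Eo+ against ESC (adjusted p = 3.29e-07) and -6.52 ± 0.70 in Eo+ against Eo− (adjusted p = 8.72e-06). The Eo+ mean of 0.00920 CPM rests on few counts and was 0.00575 CPM without Eo+ replicate 2. The fold changes of Eo+ against ESC and against Eo− were -8.20 and -7.10 without Eo+ replicate 2, and -6.68 and -5.59 without Eo+ replicate 6, the library with 0 counts.

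Nkx6-3, a homeobox factor of the stomach and of hindbrain neurons, was a rare ESC transcript with a wide spread between cultures. It had 603, 975, 324 and 236 counts in ESC, 79, 67, 31 and 15 in Eo− and 2, 1, 12 and 10 in Eo+ libraries, which correspond to means of 0.702, 0.0599 and 0.00913 CPM. The groups did not overlap, although ESC libraries differed among themselves from 0.353 to 1.30 CPM. The log2 fold change was -3.59 ± 0.61 in Eo− (adjusted p = 0.000189) and -6.60 ± 0.92 in Eo+ (adjusted p = 2.05e-05) against ESC. Between the fractions it was -3.01 ± 1.02 (adjusted p = 0.0282), and this call was lost when Eo− replicate 1 or 2 or Eo+ replicate 1 or 2 was left out, at adjusted p of 0.0572, 0.0596, 0.0773 and 0.0835, with a range over all alternatives of 0.000484 to 0.0835.

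Sox11, a SoxC factor of committed neuronal precursors and of many other embryonic tissues, went the other way. It stood at 39.7, 40.4, 56.5 and 37.9 CPM in ESC, at 118.8, 131.8, 126.7 and 129.8 CPM in Eo− and at 135.2, 173.3, 154.0 and 159.5 CPM in Eo+ libraries. Each day 3 library was above each ESC library. The log2 fold change was 1.55 ± 0.11 in Eo− (adjusted p = 1.26e-07) and 1.84 ± 0.11 in Eo+ (adjusted p = 8.99e-09) against ESC, a rise to 290.5% and 356.5% of the ESC mean. Every Eo+ library was also above every Eo− library. Its log2 fold change in Eo+ against Eo− was 0.29 ± 0.10 (adjusted p = 0.0337), a call that was lost under edgeR's quasi-likelihood test (adjusted p = 0.0541) and without Eo− replicate 1, 5 or 6 or Eo+ replicate 2 or 6, with adjusted p of 0.00319 to 0.0945 over all alternatives.

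Nes and Nefm, which encode the intermediate filament protein nestin of progenitors and the medium neurofilament of neurons, were present in all 12 libraries, with ESC and day 3 levels that overlapped. Nes stood at 37.4, 65.0, 85.3 and 59.6 CPM in ESC, at 61.9, 121.6, 79.2 and 110.1 CPM in Eo− and at 44.9, 83.9, 81.8 and 69.1 CPM in Eo+ libraries. Nefm stood at 4.53, 7.20, 10.9 and 6.06 CPM in ESC, at 7.34, 10.9, 7.88 and 12.03 CPM in Eo− and at 3.30, 7.08, 6.59 and 5.73 CPM in Eo+. For either gene, the range of the ESC libraries overlapped with those of the Eo− and Eo+ libraries. Against ESC, Nes had a log2 fold change of 0.60 in Eo− (adjusted p = 0.0684, 95% interval 0.03 to 1.18) and of 0.20 in Eo+ (adjusted p = 0.552, 95% interval -0.39 to 0.79). With the replicate number as a block, Nes in Eo− against ESC was called (0.60, adjusted p = 0.00526), although not every ESC library deviated together with the day 3 libraries of its number. Nefm had 0.45 in Eo− (adjusted p = 0.170, 95% interval -0.13 to 1.04) and -0.33 in Eo+ (adjusted p = 0.346, 95% interval -0.96 to 0.30).

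ESC replicate 5, which had the highest feeder sum, was also the ESC library with the highest Nes, Nefm, Sox11, Neurog3 and Gbx2. It had the highest mesendoderm sum of the ESC libraries, 289.9 CPM against 93.8 to 171.3, and the lowest naive pluripotency sum, 2283 CPM against 2711 to 3024. Without it, Nes and Nefm in Eo− against ESC passed the threshold, at 0.78 (adjusted p = 0.0284) and 0.69 (adjusted p = 0.0422), and Nes in Eo+ against ESC was 0.37 (adjusted p = 0.262). Over all alternatives, the adjusted p in Eo− against ESC ran from 0.00526 to 0.229 for Nes and from 0.0422 to 0.464 for Nefm. Sox11 kept its rise without this library, at 1.69 in Eo− and 1.98 in Eo+, while Neurog3 in Eo− against ESC was -0.95 (adjusted p = 0.0149), and Gbx2 was -4.63 in Eo− and -4.85 in Eo+. The part of feeder RNA, or of the cells behind the other sums, in these levels was not tested. Without ESC replicate 1, which had the lowest Nes and Nefm among ESC libraries, Nes was 0.38 in Eo− (adjusted p = 0.229) and -0.03 in Eo+ (adjusted p = 0.923) against ESC.

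**Figure D1:**
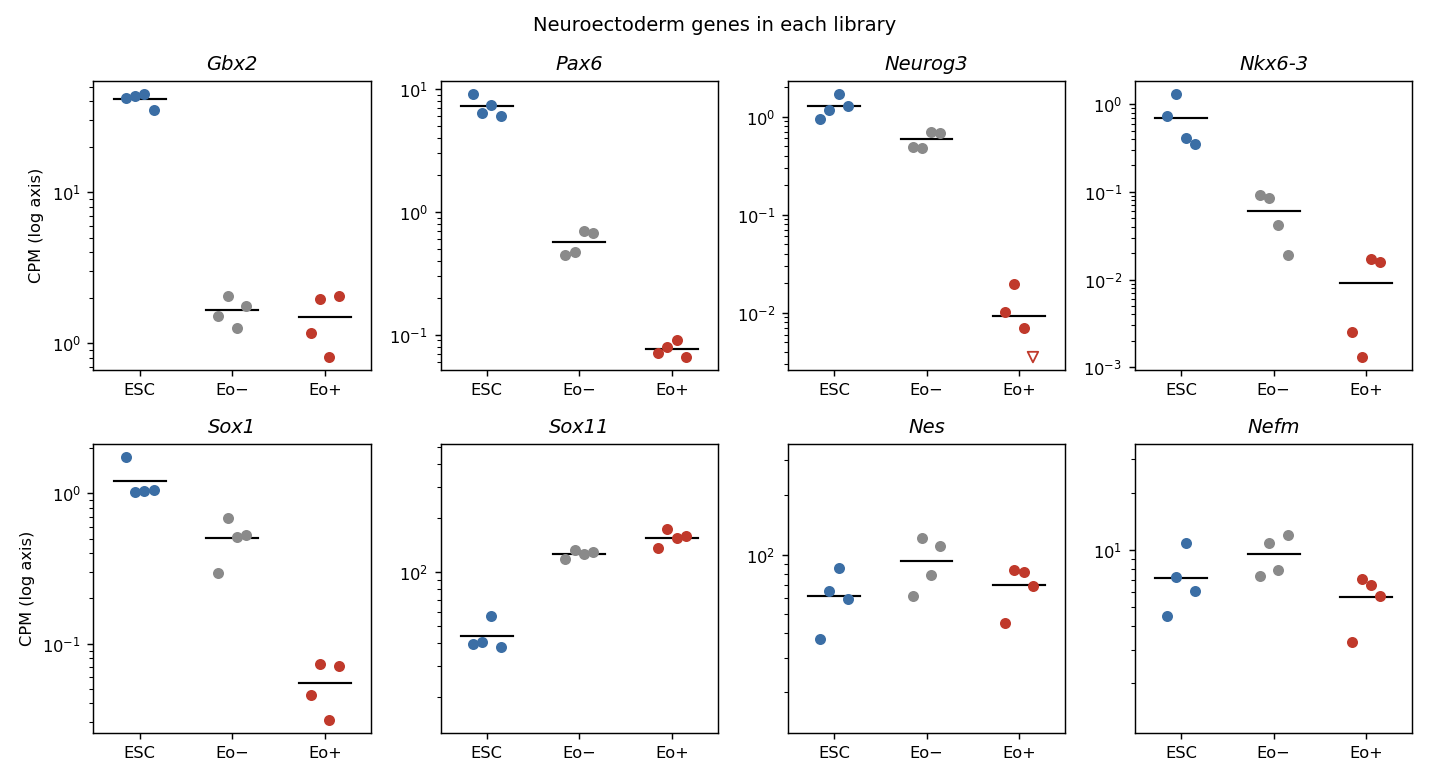
Level of each of the 8 genes in each library as CPM on a log axis, by group, where points are libraries in the order of replicates 1, 2, 5 and 6, lines are group means and the open triangle marks a library with 0 counts, drawn below the lowest CPM above 0 of that gene. Gbx2, Pax6, Neurog3, Nkx6-3 and Sox1 are highest in all 4 ESC libraries, Sox11 is lowest there at 37.9 to 56.5 CPM, and for Nes and Nefm the ESC libraries overlap with those of either day 3 fraction.

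Compared with ESC, 6 of the 8 genes were called in Eo− cells, 1 higher (Sox11) and 5 lower (Gbx2, Pax6, Nkx6-3, Sox1 and Neurog3), at an adjusted p of at most 0.05. Over all tested loci 57.3% were called, 27.9% higher and 29.4% lower. The libraries of the 2 groups did not overlap for the same 6 genes, against 51.7% of all loci (25.1% higher and 26.6% lower). In Eo+ cells again 6 of the 8 were called against ESC, 1 higher and 5 lower, beside 66.7% of all loci (32.9% higher and 33.8% lower), and the same 6 did not overlap, against 59.8% of all loci (29.6% higher and 30.2% lower). Both comparisons use the same ESC libraries. Sox1, Pax6 and Nkx6-3 exceeded the 0.1 FPKM minimum in ESC alone, so they entered the test through ESC and had to be higher there.

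Between the sorted fractions of the same day 3 cultures, the rare factors were lower in the Eomes-positive cells. Of the 8 genes 6 were called in Eo+ against Eo−, 1 higher (Sox11) and 5 lower (Neurog3, Sox1, Nkx6-3, Pax6 and Nefm), beside 43.4% of all loci (21.2% higher and 22.2% lower). The libraries of the fractions did not overlap for these 6, against 42.8% of all loci (21.1% higher and 21.7% lower). Nefm had a log2 fold change of -0.78 ± 0.28 (adjusted p = 0.0373), which was lost without Eo− replicate 2 or 6 or Eo+ replicate 1 or 6, with adjusted p of 0.00489 to 0.132 over all alternatives. It was -0.52 without Eo+ replicate 1. Nes had -0.41 ± 0.27 (adjusted p = 0.235, 95% interval -0.98 to 0.16). The replicate numbers paired these fractions, and with the number as a block in a fit of the 2 fractions Nes was called, at -0.42 ± 0.11 (adjusted p = 0.0146), with adjusted p of 0.0146 to 0.573 over all alternatives.

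**Figure D2:**
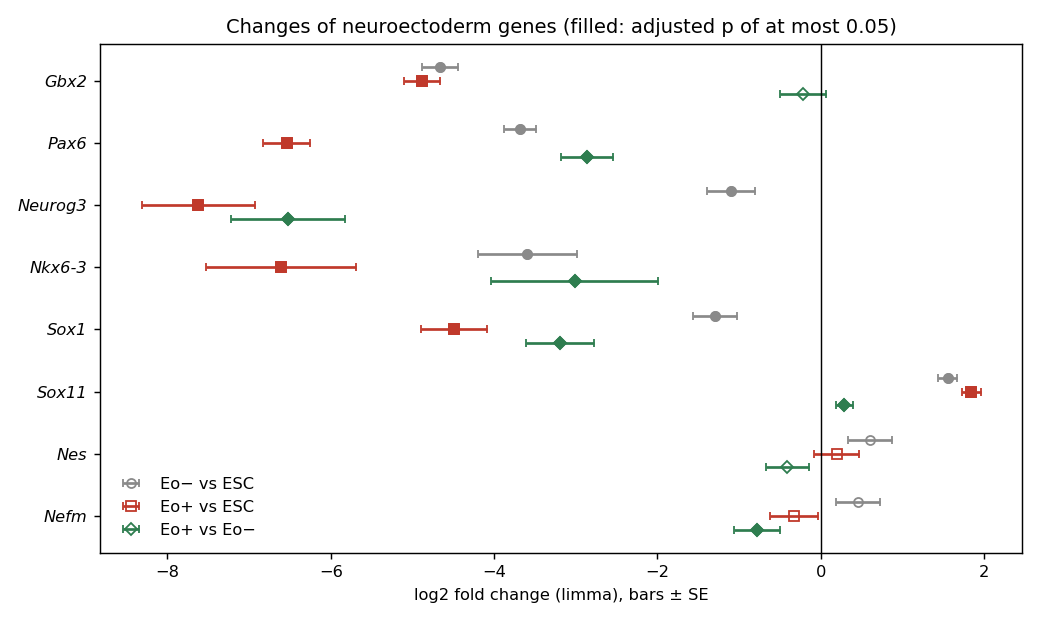
log2 fold change (limma) of each gene in the 3 comparisons, with bars of ± 1 SE, filled symbols at an adjusted p of at most 0.05 and open symbols above it. Sox11 lies to the right of 0 in every comparison, Gbx2 lies near -4.66 and -4.89 against ESC but at -0.22 between the fractions, and Neurog3 has its largest changes in Eo+ cells, at -7.62 and -6.52.

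Other loci were transcribed from the opposite strand at several of these genes, and the reads were counted by strand. At the 3′ end of Pax6, a single-exon locus (XLOC_041662, chr2:105696738-105700392, minus strand) overlapped it by 1285 bp and moved in the opposite direction. It had 949, 879, 767 and 585 counts in ESC, 1619, 908, 956 and 928 in Eo− and 2654, 1883, 1795 and 1675 in Eo+ libraries, so that all Eo+ libraries were above all others while Eo− and ESC overlapped. It lay outside the classes tested, and in a fit of all 69779 positioned loci with a count its log2 fold change was 0.36 ± 0.21 in Eo− (adjusted p = 0.185) and 1.32 ± 0.20 in Eo+ (adjusted p = 3.29e-05) against ESC, and 0.95 ± 0.19 between the fractions (adjusted p = 0.00174).

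At Gbx2 a locus on the opposite strand fell as the gene did, and at Nkx6-3 a rare locus did while Agpat6, the more abundant gene on its opposite strand, rose. A locus without an annotated gene (XLOC_068554, chr8:23155036-23161992, minus strand) overlapped Nkx6-3 by 3913 bp and had 1271, 770, 560 and 103 counts in ESC, 52, 16, 18 and 7 in Eo− and 0, 0, 2 and 0 in Eo+ libraries. Its ESC libraries ordered differently from those of Nkx6-3, and its log2 fold change in Eo− against ESC was -4.81 ± 0.92. Like Nkx6-3, it exceeded 0.1 FPKM in ESC alone (0.131 FPKM), so it entered the test through ESC and had to be higher there, and the parallel fall is a description. D130058E05Rik (XLOC_001215, chr1:89930134-89934185, plus strand) overlapped Gbx2 by 1046 bp and had 2905, 2655, 2350 and 1518 counts in ESC, 425, 748, 388 and 659 in Eo− and 331, 657, 216 and 457 in Eo+ libraries. Its log2 fold change was -2.18 ± 0.29 in Eo− (adjusted p = 2.38e-05) and -2.53 ± 0.30 in Eo+ (adjusted p = 4.64e-06) against ESC, and it was not called between the fractions (-0.35 ± 0.34, adjusted p = 0.431), as Gbx2 was not.

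Annotated genes also overlapped Neurog3, Nkx6-3 and Nefm on the other strand, with changes that differed from gene to gene. Agpat6, which spans Nkx6-3, rose by a log2 fold change of 0.48 in Eo− and 0.72 in Eo+ against ESC, and 2010107G23Rik, which overlaps Neurog3, had 0.59 ± 0.17 in Eo− (adjusted p = 0.00886) and 0.31 in Eo+ (adjusted p = 0.134). Nefl, the light neurofilament, lies on the opposite strand within the span of the longest Nefm transcript. It had means of 51.9, 58.1 and 33.2 CPM in ESC, Eo− and Eo+. It was lower in Eo+ than in Eo− cells (-0.83 ± 0.24, adjusted p = 0.0123), as was Nefm, and lower in Eo+ than in ESC (-0.60, adjusted p = 0.0416), where Nefm was not called.

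**Figure D3:**
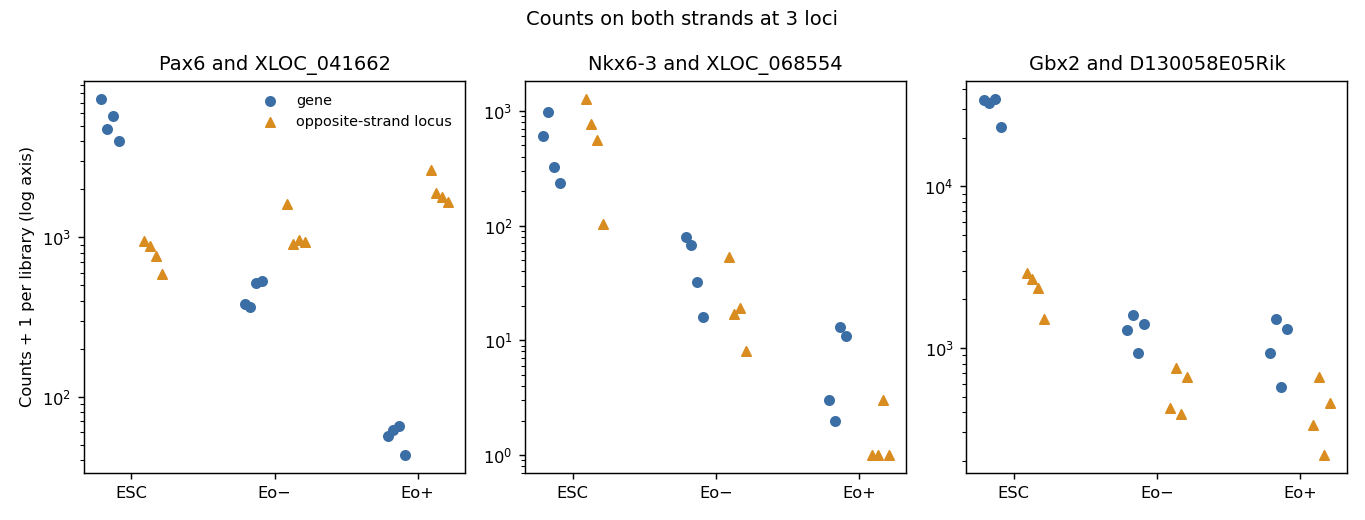
Counts + 1 per library (log axis) of Pax6, Nkx6-3 and Gbx2 (circles) and of the opposite-strand locus at each (triangles), by group, with replicates 1, 2, 5 and 6 from left to right. Pax6 falls from ESC to Eo+ while its opposite-strand locus reaches 1675 to 2654 counts in Eo+, D130058E05Rik is highest in ESC as is Gbx2, and XLOC_068554 and Nkx6-3, which passed the expression filter through ESC alone, are also highest there.

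Other neural genes, taken from lists of textbook markers, moved in either direction. Of 30 neural plate and progenitor transcription factors, 24 were tested. Against ESC, 10 were called higher and 7 lower in Eo−, and 11 higher and 8 lower in Eo+. Their median log2 fold changes were 0.28 and 0.78, against 0.02 and -0.01 over all tested loci. As a background, called rises made up 27.9% and called falls 29.4% of the tested loci in Eo−, and 32.9% and 33.8% in Eo+. Of these 24 factors, 7 had their highest mean in ESC, 5 in Eo− and 12 in Eo+. Among the 12, Dbx1, Pax7, Nkx6-1 and Lhx5 exceeded 0.1 FPKM in Eo+ alone and had to be highest there. Otx2, a factor of the epiblast and of anterior neuroectoderm, rose from 6.34 FPKM in ESC to 48.2 in Eo− and 42.5 in Eo+ (2.80 ± 0.25 in Eo+, adjusted p = 2.40e-07), and Sox3, a SoxB1 factor of the epiblast and neural plate, by 2.00 ± 0.23 in Eo− (adjusted p = 7.50e-06), while in Eo+ Sox3 was lower than in ESC (-0.90 ± 0.30, adjusted p = 0.0164) and than in Eo− (-2.90 ± 0.26). Nkx6-2, a paralog of Nkx6-3, fell with it, from 2.13 FPKM in ESC to 0.185 in Eo− (-3.52 ± 0.21) and 0.0378 in Eo+ (-5.82 ± 0.28), as did En2, a midbrain and hindbrain factor (-1.84 ± 0.16 and -4.93 ± 0.22).

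In Eo+ cells the largest rises of this list were those of Dbx1 and Irx3, which also rose in Eo− cells. Dbx1, a factor of spinal interneuron progenitors, stood at 0.316 FPKM in Eo+ (6.06 ± 0.75 against ESC, adjusted p = 6.68e-06, and 3.52 ± 0.80 in Eo−), and Irx3, which patterns the neural tube and also the mesoderm, at 4.98 FPKM (3.19 ± 0.24, adjusted p = 5.84e-08, and 1.32 ± 0.27 in Eo−). Between the fractions 9 of the 24 were called higher and 6 lower in Eo+, with a median of 0.29 against -0.03 over all tested loci, of which 21.2% were called higher and 22.2% lower. In this list Pax7 (3.26 ± 0.41) and Nkx6-1 (3.08 ± 0.39) led the rise, and Pou3f1, a POU factor of epiblast and neural progenitors, led the fall (-3.40 ± 0.26), followed by En2 (-3.09 ± 0.23). Dbx1, Pax7 and Nkx6-1 exceeded 0.1 FPKM in Eo+ alone, so they entered the test through Eo+ and had to be highest there.

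Proneural and neuronal genes also moved in either direction. Of 22 on the list 17 were tested, 5 were higher and 8 lower in Eo− and 3 higher and 9 lower in Eo+ against ESC, with medians of -0.38 and -0.60, and 2 were higher and 12 lower in Eo+ against Eo−, with a median of -0.83. Over all tested loci the shares called higher and lower were 27.9% and 29.4%, 32.9% and 33.8%, and 21.2% and 22.2% in these comparisons. Neurog1 stood at 0.141 FPKM in ESC and fell in Eo+ (-5.96 ± 0.85, adjusted p = 2.47e-05), but it exceeded 0.1 FPKM in ESC alone and had to be highest there. Nefh, the heavy neurofilament, fell from 11.2 FPKM in ESC to 2.17 in Eo− (-2.38 ± 0.18) and 0.243 in Eo+ (-5.74 ± 0.27), unlike Nefm, which was not called against ESC. Mapt, which encodes the microtubule protein tau, fell from 2.71 to 0.122 FPKM in Eo− (-4.48 ± 0.26). Sox4, the SoxC relative of Sox11, rose with it, from 3.24 FPKM in ESC to 8.73 in Eo− (1.44 ± 0.12) and 15.6 in Eo+ (2.27 ± 0.11), and Snap25, a synaptic protein, rose by 2.37 ± 0.24 in Eo− and 1.73 ± 0.25 in Eo+. Between the fractions, Elavl3, a neuronal RNA-binding protein, fell by 3.96 on the log2 scale in Eo+, and Ncam1, an adhesion molecule, rose by 1.95.

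Of 10 neural stem cell genes, to which Nes would belong, all were tested, 5 were higher and 2 lower in Eo− and likewise in Eo+ against ESC, with medians of 0.56 and 0.94. Over all tested loci 27.9% were higher and 29.4% lower in Eo−, and 32.9% and 33.8% in Eo+, with medians of 0.02 and -0.01. Fabp7, a fatty acid binding protein of radial glia, rose by 2.92 ± 0.26 in Eo− and 2.88 ± 0.26 in Eo+, and Msi1, an RNA-binding protein of progenitors, by 2.27 ± 0.10 in Eo−. Cdh2, or N-cadherin, which mesoderm also makes, rose by 3.57 ± 0.27 in Eo+. Vim, the intermediate filament protein vimentin, which fibroblasts also make, fell by 1.17 on the log2 scale in Eo− (adjusted p = 0.00246). Gfap fell in either fraction and Ncan in Eo+ (-1.44 ± 0.30). Between the fractions 3 were higher and 4 lower in Eo+, with a median of -0.02, where Cdh2 and Hes1 led the rise and Ncan and Slc1a3 the fall.

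Neurog3 and Nkx6-3 were also set beside 11 genes of the endocrine pancreas and stomach, of which 8 were tested. Against ESC, 3 were higher and 2 lower in Eo− (median 0.16), and 4 higher and 2 lower in Eo+ (median 0.96), while 3 were higher and 1 lower in Eo+ against Eo− (median 0.50). Over all tested loci the shares called higher and lower were 27.9% and 29.4%, 32.9% and 33.8%, and 21.2% and 22.2% in these comparisons. The medians over all tested loci were 0.02, -0.01 and -0.03. The Ghrl locus was joined with Sec13, a gene of many cell types, and without it the 3 medians of the list were 0.46, 1.39 and 0.86. Insm1, which acts downstream of Neurog3 in endocrine cells, was highest in ESC at 0.949 FPKM and fell in Eo− (-1.58 ± 0.18) and in Eo+ (-1.43 ± 0.18), and Gast, the gastrin gene, stood at 0.173 FPKM in ESC, 0.000465 in Eo− and 0.00104 in Eo+, so it entered the test through ESC alone. Isl1, a factor of endocrine, neural and cardiac progenitors, rose in Eo− (2.48 ± 0.41) and Eo+ (3.97 ± 0.39), and Sst, the somatostatin gene, rose in Eo− (3.47 ± 0.54) and was lower in Eo+ than in Eo− (-1.88 ± 0.45). Rfx6 rose in Eo+ (3.21 ± 0.74), and Chgb was higher in Eo+ than in Eo− (0.93 ± 0.22).

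Naive pluripotency genes fell at day 3, as did Gbx2, Pax6, Sox1, Neurog3 and Nkx6-3. Of these members, Pax6, Sox1 and Nkx6-3 exceeded 0.1 FPKM in ESC alone and had to be highest there, so their parallel fall is a description. All 12 naive genes were called lower in Eo− than in ESC, at a median of -3.19 on the log2 scale, and 11 were lower in Eo+, at a median of -4.96. Over all tested loci 29.4% were called lower in Eo− and 33.8% in Eo+. Klf4 (-4.45 ± 0.24) and Tfcp2l1 (-4.20 ± 0.18) had the largest falls in Eo−, beside -4.66 for Gbx2 and -3.68 for Pax6, and Nr0b1 (-8.70 ± 0.38) and Dppa3 (-7.99 ± 0.35) in Eo+, beside -7.62 for Neurog3. Of the 14 feeder markers tested, 12 were lower and 1 higher in Eo−, and 13 were lower in Eo+, with medians of -2.48 and -2.54. S100a4 (-10.04 ± 1.01) and Ccl2 (-8.53) fell most in Eo−, and S100a4 and Col3a1 (-7.78 ± 0.70) in Eo+, while Thy1 was higher in Eo− than in ESC (0.62 ± 0.20). In Eo+ against Eo−, 1 feeder marker was higher (Twist2) and 4 were lower, with a median of 0.15, and among those with at least 0.1 FPKM in Eo− the falls of Dcn (-2.73 ± 0.46) and Thy1 (-1.47 ± 0.22) were largest. S100a4, Ccl2 and Col3a1 exceeded 0.1 FPKM in ESC alone and had to be highest there. Within ESC, the feeder sum was highest in replicate 5, as were Gbx2 and Neurog3, while Pax6 and Sox1 were highest in replicate 1 and Nkx6-3 in replicate 2, and the part of feeder RNA in these levels was not tested.

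**Figure D4:**
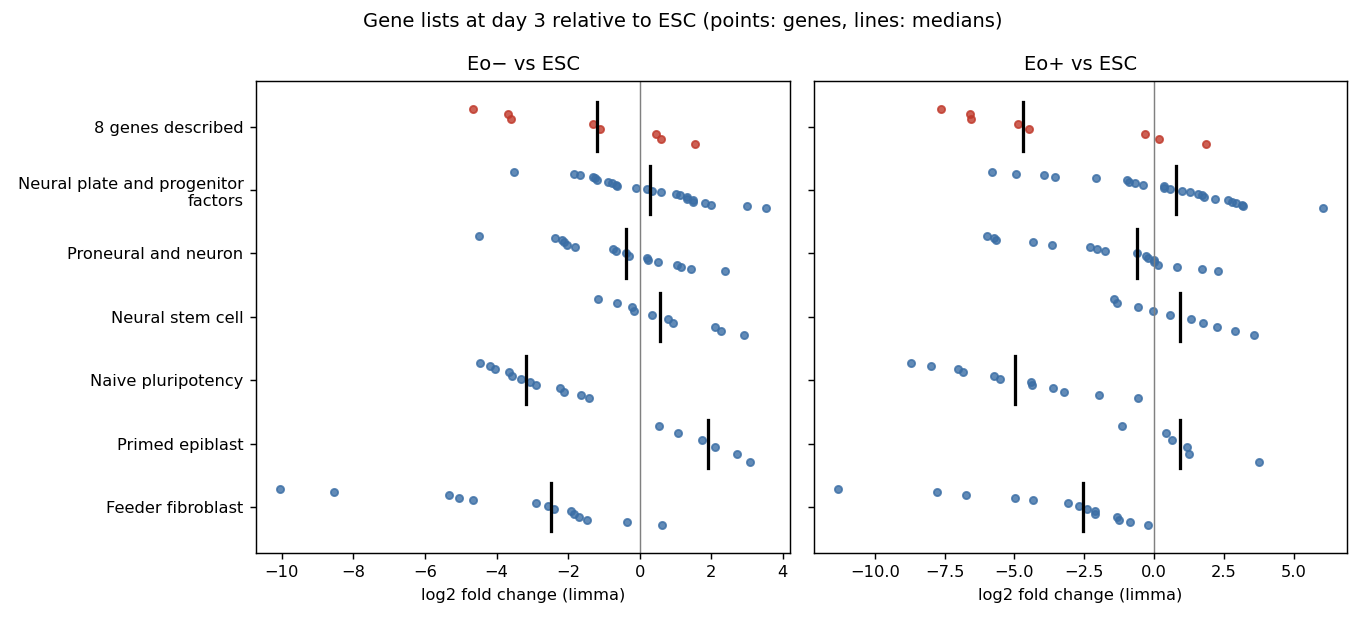
log2 fold change (limma) of each tested gene of 7 lists in Eo− (left) and Eo+ (right) against ESC, where points are genes and black lines are medians. Naive pluripotency genes lie at negative values, with a median of -3.19 in Eo−, while neural plate factors and neural stem cell genes lie on either side of 0, with medians of 0.28 and 0.56.

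The loci whose pattern over the 12 libraries was most like that of each gene were ranked by the root mean square difference of centred log2(CPM + 0.1) values among 13276 candidates. For Pax6 these were Rhox9 (0.22), Rhox6 (0.25) and Nkx6-2 (0.26), and for Gbx2 they were Ddr2 (0.38), Myo1g (0.41) and 4930444M15Rik (0.43). For Neurog3 they were Wt1 (0.32), CN725425 (0.34) and Taf7l (0.34), for Sox1 Rinl (0.29), Prdm16 (0.30) and Nqo1 (0.30), and for Nkx6-3 Rusc2 (0.23), Lrrc34 (0.31) and Lpar5 (0.31). With a pseudocount of 1 none of these 3 stayed among the nearest for Sox1, Gbx2, Neurog3 and Nkx6-3, and 1 stayed for Pax6. For the other members, more of the 3 stayed. Dzip1l (0.11), Fndc4 (0.12) and Lrp4 (0.14) were nearest to Sox11, of which 2 stayed, Kremen2 (0.22), Lhpp (0.23) and Adamts8 (0.23) to Nes, of which 2 stayed, and Rrad (0.23), Nes (0.25) and Nefl (0.26) to Nefm, of which 3 stayed. Dzip1l, for example, had means of 9.32, 26.1 and 31.3 CPM in ESC, Eo− and Eo+, beside 43.6, 126.7 and 155.5 CPM for Sox11.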

How the data were processed

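Poly(A) RNA was sequenced from 12 libraries, 4 per group. The authors mapped stranded paired reads to mm10 with STAR (version 2.0.4 in the submitters' processing notes, while the methods name a later one), assembled transcripts with Cufflinks 2.2.1 on top of Ensembl, and used HTSeq 0.6.1 (union mode, by strand) to count the reads of each merged locus. The deposited table holds these whole-number counts, unscaled. Reads that HTSeq left unassigned entered no step. A deposited table of scaled counts was not used, the deposited annotation gave positions for all but 357 loci, and 0 columns of other samples were found.

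Loci that matched a reference gene, or had a multi-exon transcript of 200 bp or more, with a mean FPKM above 0.1 in at least 1 group were tested (20212) with limma 3.58.1 (voom, TMM sizes from edgeR 4.0.16, R 4.3.3), 1 mean per group over 12 libraries, two-sided with 13.5 degrees of freedom, Benjamini-Hochberg adjustment over all tested loci, with an adjusted p threshold of 0.05. The procedure was tested on simulated data with 200 changed genes. Printed CPM and FPKM use TMM-scaled sizes, and FPKM the summed exon length of a locus. The FPKM and CPM minimums were applied to values on unscaled library totals.

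The members and lists were chosen with earlier results of these data known. All 8 members are named, and from each other list, per comparison, up to 2 called genes with the largest rise and 2 with the largest fall among those with at least 0.1 FPKM in the higher group; other list genes are counted. Genes most alike in pattern were the 3 nearest loci with a symbol and a mean of at least 1 CPM. Deviations from group means correlated between same-numbered Eo− and Eo+ libraries (0.590, 0.295, 0.331 and 0.312 for numbers 1, 2, 5 and 6), so the numbers pair the fractions. With same-numbered ESC libraries the correlations ran from -0.115 to 0.330, so the numbers were not taken to pair those, although the methods list the libraries by differentiation set. Alternatives were edgeR's quasi-likelihood test, DESeq2 1.42.0, other scalings and filters, the replicate block and leaving out each library.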

Additional observations from a re-analysis of the deposited data

Results flagged for a closer look

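Of 24 sets of 4 libraries (8 genes in 3 groups) examined for a library far from the others, 2 held one, where chance gives about 1 in 20. Sox1 was 1.75 CPM in ESC replicate 1 against 1.03 to 1.05 CPM in the other ESC libraries, a gap of 0.973 of the range of the group. Sox11 was 56.5 CPM in ESC replicate 5 against 37.9 to 40.4 CPM in the others, a gap of 0.863 of the range.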

How the results depend on the processing

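Over all alternatives, the fold changes of the members kept direction and side of the threshold in 497 cases, lost the call in 20, gained one in 8 and reversed in 2, neither of them called: leaving out 1 library at a time, Gbx2 in Eo+ against Eo− ran from -0.392 (without Eo+ replicate 6) to 0.0420 (without Eo+ replicate 5), and Nes in Eo+ against ESC from -0.0329 (without ESC replicate 1) to 0.413 (without Eo+ replicate 1). Requiring a 2-fold change as well left 5348, 7208 and 3912 called loci in Eo− against ESC, Eo+ against ESC and Eo+ against Eo−, in place of 11579, 13473 and 8769, and ended the calls of Nefm and Sox11 between the fractions. Requiring 1 CPM, on unscaled library totals, in at least 4 libraries left 3, 3 and 2 called members, because Sox1, Neurog3 and Nkx6-3 then failed the filter and Sox11 between the fractions was not called. Nefm between the fractions was also lost with no expression filter (adjusted p = 0.0534), and Sox11 between the fractions with unscaled library totals (0.0559), with that CPM minimum (0.0654) and with reference-matched loci only (0.0582). Nes in Eo− against ESC was called with unscaled library totals (adjusted p = 0.0377) and without Eo− replicate 1 (0.0204) or Eo+ replicate 1 (0.0417). The replicate block gave 12308, 14057 and 9838 called loci and 7, 6 and 7 called members. It called Nes in Eo− against ESC (0.60, adjusted p = 0.00526), where the numbers were not taken to pair the libraries, and Nes in Eo+ against Eo− (-0.40, adjusted p = 0.0439), and it changed no other member's call. In a fit of the fractions alone it gave 10670 loci and 7 members. This fit and the fit of every positioned locus, used for the opposite strand of Pax6, were chosen after seeing the data, as was leaving out the list genes Sox2, Six3, Neurod1, Ghrl, Tfcp2l1 and Pim2, whose loci were joined with other genes. That moved the list medians of the endocrine and stomach genes by over 1.5 times in Eo− against ESC and between the fractions, and the median of the proneural and neuronal genes in Eo+ against ESC was -0.44. Levels of Neurog3 and Nkx6-3 in Eo+ cells rest on at most 15 counts per library, and differences among them were not detectable at this depth.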

Other observations

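Primed epiblast genes rose where naive genes fell. Of 6 tested, 6 were higher in Eo− than in ESC (median log2 fold change 1.92), with the largest rises in Fgf5 (3.07 ± 0.29) and Sall2 (2.72 ± 0.14), and 5 were higher and 1 lower in Eo+ (median 0.93), where Fgf5 rose by 3.75 ± 0.29 and Foxd3 fell (-1.15 ± 0.29). Between the fractions 2 were higher and 4 lower in Eo+ (median -1.38). Over all tested loci the shares called higher and lower were 27.9% and 29.4%, 32.9% and 33.8%, and 21.2% and 22.2% in these comparisons. The Pim2 locus was joined with Otud5 and Slc35a2, and without it 5 of 5 were higher in Eo− (median 2.11), 4 were higher and 1 lower in Eo+ (median 1.19), and 2 were higher and 3 lower between the fractions (median -1.45). Foxd3 (-2.22 ± 0.27) and Sall2 (-1.46 ± 0.12) fell and Fgf5 (0.68 ± 0.22) and Lef1 (0.66 ± 0.20) rose. The naive gene Tbx3 was called higher in Eo+ than in Eo− (3.46 ± 0.50), while 9 of the 12 naive genes were lower.

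All 8 mesendoderm genes were called higher in Eo+ than in ESC and than in Eo− (medians 5.01 and 3.89), and 6 were higher in Eo− than in ESC (median 1.93). Mesp1, which marks cardiac mesoderm, rose by 8.30 ± 0.97 and Lhx1 by 7.00 ± 0.43 in Eo+ against ESC, and Mesp1 (3.72 ± 1.08) and Sox17 (2.58 ± 0.48), an endoderm factor, rose in Eo−. Of 10 visceral endoderm genes, 7 were higher and 2 lower in Eo+ than in ESC (median 3.19), 1 was higher and 2 lower in Eo− (median -0.29), and 6 were higher and 1 lower in Eo+ than in Eo− (median 2.81). The summed level of the visceral endoderm list in Eo+ cultures ran from 16.5 to 113.7 CPM. It was 31.4 to 37.5 CPM in Eo− and 85.9 to 92.4 CPM in ESC, where Rhox5 alone had a mean of 81.4 CPM. Ttr (9.89 ± 2.93) and Apoa4 (9.60 ± 2.00) rose most in Eo+ against ESC, Afp (4.21 ± 1.19) and Apob (3.78 ± 0.89) between the fractions, and Rhox5 fell in every comparison (-3.72 ± 0.16 in Eo+ against ESC). Apoa4, Afp and Apob exceeded 0.1 FPKM in Eo+ alone, so they entered the test through Eo+ and had to be highest there.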
